A study of Mus musculus with 12 samples.

Results

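The comparison described here is the loss of the second Bcl6 allele in splenic follicular (FO) B cells. It sets 2 arrays of FO cells from mb1-cre(+/-)Bcl6(flox/flox) mice against 2 arrays of FO cells from mb1-cre(+/-)Bcl6(+/flox) mice, chosen by cell type and genotype as labelled. These are 4 of the 12 Affymetrix arrays of the study, which also covers mb1-cre(+/-)Bcl6(+/+) mice and marginal zone (MZ) B cells, with 2 arrays for each of the 6 combinations. All mice were C57BL/6 females aged 10 weeks. Every group, the +/+ group included, carried 1 copy of mb1-cre, a Cre recombinase allele placed in the B cell receptor gene Cd79a (mb1) and active from early B cell development, so any effect of Cre or of the altered Cd79a copy is common to all groups. A flox/flox cell that has recombined has no intact Bcl6 allele, a +/flox cell keeps 1, and a +/+ cell keeps both. FO cells were sorted as B220+AA4.1-CD21intCD23+ after magnetic depletion of cells bearing markers that included CD43, CD11b, Gr-1, TER119 and CD3.

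BCL6 is a zinc-finger transcriptional repressor that recruits corepressors such as BCOR, NCOR and SMRT, and it is best known as the regulator that germinal centre B cells depend on. In those cells it restrains genes of cell cycle arrest, DNA damage response, activation and plasma cell differentiation. Resting FO B cells carry its transcript as well, but they are not germinal centre cells.

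Values are log2 expression levels made with GCRMA, which corrects background by probe sequence, so that probe sets with no signal collect at a minimum, 2.21 on every FO array. A difference is the flox/flox mean minus the +/flox mean, given in log2 units ± the standard error (SE) of the model. The labels leave unstated whether replicates 1 and 2 are different animals. The p-values therefore gauge variation among these arrays, and that variation could be purely technical. Because these are bulk samples, fewer cells of a type and less RNA per cell cannot be told apart.

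The arrays bore the marks of FO B cells. Fcer2a, which encodes CD23, lay at 13.63 and 13.84 on the flox/flox arrays and at 13.94 and 14.25 on the +/flox arrays. On the MZ arrays, which may have been normalized separately, it lay between 8.85 and 9.50. All 9 measured FO B cell markers of the marker list were at 4 or more on each FO array. They were so on each MZ array as well, so this count does not set FO apart from MZ cells. The arrays of a group correlated at 0.979 for flox/flox and 0.979 for +/flox over the tested genes. Of the T cell markers, 7 of 8 lay within 0.5 of the minimum on all FO arrays, as did 5 of 5 NK cell and 4 of 4 megakaryocyte markers. Of 12 macrophage and dendritic cell markers only 6 did, and 3 to 5 were at 4 or more on each FO array. The mean of these 12 was 3.63 and 3.18 on the flox/flox arrays and 3.78 and 3.17 on the +/flox arrays, higher on replicate 1. Replicate 1 stood apart from replicate 2 in both groups by transcripts of neutrophils. S100a8 lay at 9.17 and 2.66 in flox/flox cells and at 7.55 and 2.60 in +/flox cells. S100a9 lay at 9.81 and 2.24 in flox/flox cells and at 7.94 and 2.31 in +/flox cells. The mean of the 9 measured neutrophil markers was 5.12 and 2.46 on the flox/flox arrays and 3.98 and 2.46 on the +/flox arrays, with Mmp8 at the minimum on all 4 and Elane within 0.5 of it. The part of these cells in the results was not tested, but the count of genes that passed is also given below without replicate 1 of both groups.

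Few differences between flox/flox and +/flox FO cells passed the test. Of 9306 genes tested with limma over all 12 arrays, 7 passed an adjusted p of 0.05 between flox/flox and +/flox FO cells, 0.0752% of those tested. In the flox/flox cells 6 rose, 0.0645%, and 1 fell, 0.0107%. At a limma p under 0.05 before adjustment there were 282 genes, 3.03%, fewer than the 465 that chance alone would give, with 207 higher (2.22%) and 75 lower (0.806%). The median difference over all tested genes was 0.00, with 4619 positive and 4596 negative. Arrays of the 2 groups failed to overlap for 1262 genes higher in flox/flox cells, 13.6%, and 1076 lower, 11.6%. The number of arrays limits the precision.

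The targeted gene, Bcl6, had 2 probe sets of opposite sign. The brighter one read 12.70 and 12.88 in flox/flox cells, against 11.91 and 12.10 in +/flox cells and 11.95 and 11.65 in +/+ cells. Its arrays did not overlap between flox/flox and +/flox, with a difference of 0.78 ± 0.23 that did not pass (limma adjusted p = 0.667). The dimmer one read 2.36 and 2.48 in flox/flox cells, against 4.93 and 4.86 in +/flox cells and 4.94 and 5.61 in +/+ cells. This probe set fell by 2.47 in flox/flox cells (limma adjusted p = 0.0111 over the 16693 probe sets tested with 1 symbol), to within 0.5 of the minimum. The sources used here give neither the deleted exons nor the part of the transcript that each probe set reads, so neither value by itself checks the genotype labels. The dimmer probe set was at the minimum on all MZ arrays.

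The largest rise that passed was in Pik3r6, which encodes p84, a regulatory subunit of the class IB phosphoinositide 3-kinase PI3K gamma. It read 6.71 and 6.36 in flox/flox FO cells, against 2.21 and 2.21 in +/flox cells and 2.21 and 2.21 in +/+ cells. The transcript was thus at the minimum on every FO array labelled +/flox or +/+ and clearly above it on both labelled flox/flox. The difference was 4.32 ± 0.17 (limma adjusted p = 2.2e-05). Since the +/flox arrays are at the minimum, the size of this change depends on the background correction, and the SD of 0 in several groups lowers the SE. Pik3r6 reached the filter level of 4 only on the flox/flox FO arrays, so it entered the test through the group where it is high. A second Pik3r6 probe set, below the filter on low values, averaged 4.30 in flox/flox cells and 2.21 in +/flox cells. The gene kept its call in every alternative run except the fit to the 4 arrays of the comparison alone (adjusted p = 0.299).

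Sh3bgrl2, a small protein related to SH3-binding glutamic acid-rich proteins, gave the next rise. It read 6.46 and 6.59 in flox/flox cells, against 2.54 and 2.76 in +/flox cells and 2.77 and 2.58 in +/+ cells. As for Pik3r6, the +/flox and +/+ arrays were alike and low, and the flox/flox arrays stood alone. Sh3bgrl2 reached the filter level of 4 only on flox/flox arrays, of FO and MZ cells, so it entered the test through the groups where it is high. The difference was 3.88 ± 0.16 (limma adjusted p = 2.2e-05). A second probe set, below the filter, averaged 3.58 in flox/flox cells and 2.44 in +/flox cells. The gene too was called in every alternative run but the 4-array fit (adjusted p = 0.299).

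Adgrl2, an adhesion G protein-coupled receptor of the latrophilin family, read 6.63 and 6.01 in flox/flox cells, against 2.83 and 2.82 in +/flox cells and 2.86 and 2.76 in +/+ cells. The groups did not overlap, and the difference was 3.49 ± 0.44 (limma adjusted p = 0.0448). Adgrl2 also reached the filter level of 4 only on flox/flox arrays, of FO and MZ cells, and entered the test through them. Another probe set past the filter averaged 3.86 in flox/flox cells and 2.62 in +/flox cells, with a wide spread between the flox/flox arrays (SD 1.76). It read 5.11 and 2.62 in flox/flox cells, against 2.62 and 2.62 in +/flox cells, so only replicate 1 was higher. In flox/flox MZ cells it read 4.23 and 2.25, again higher on replicate 1 alone. The remaining Adgrl2 probe set, below the filter, was at the minimum on all FO arrays.

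Enkur, which encodes enkurin, a protein of cilia and sperm that binds TRPC channels, read 4.28 and 4.81 in flox/flox cells, against 2.88 and 2.75 in +/flox cells and 2.76 and 2.52 in +/+ cells. The level stayed low even in the flox/flox cells, and the difference was 1.73 ± 0.20 (limma adjusted p = 0.04). Enkur too reached the filter level of 4 only on the flox/flox FO arrays, and entered the test through them. Dctd, the dCMP deaminase that supplies dUMP for thymidylate synthesis, read 5.90 and 5.49 in flox/flox cells, against 4.11 and 3.98 in +/flox cells and 3.68 and 3.35 in +/+ cells. Its difference of 1.65 ± 0.20 passed (limma adjusted p = 0.0427).

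Il18, which encodes the cytokine interleukin-18, read 10.23 and 10.50 in flox/flox cells, against 8.89 and 8.81 in +/flox cells and 7.85 and 8.14 in +/+ cells. The 3 genotypes formed steps without overlap. Flox/flox exceeded +/flox by 1.52 ± 0.18, a 2.87-fold higher level (limma adjusted p = 0.0426).

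Slc41a2, a magnesium transporter, was the only gene that fell past the threshold. It read 4.58 and 4.38 in flox/flox cells, against 6.33 and 6.52 in +/flox cells and 7.57 and 7.41 in +/+ cells, again without overlap between genotypes. The level fell by 1.95 in flox/flox cells (SE 0.16), 3.86-fold (limma adjusted p = 0.0036). Leaving out the second +/flox FO array gave an adjusted p of 0.0533 and leaving out the second flox/flox FO array 0.0747, while the value stayed between -2.05 and -1.85. Adgrl2, Enkur, Dctd and Il18 passed less firmly: leaving out 1 array at a time ended their calls in 10, 11, 12 and 12 of 12 cases, with adjusted p up to 0.398. Leaving out either array of a group outside the comparison gives the same fit, so these 12 cases are not all distinct. With the replicate number as a block, Il18 did not pass (limma adjusted p = 0.0515), while Adgrl2, Enkur and Dctd did. With the block taken within cell type none of these 4 passed (limma adjusted p between 0.0685 and 0.116).

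**Figure D1:**
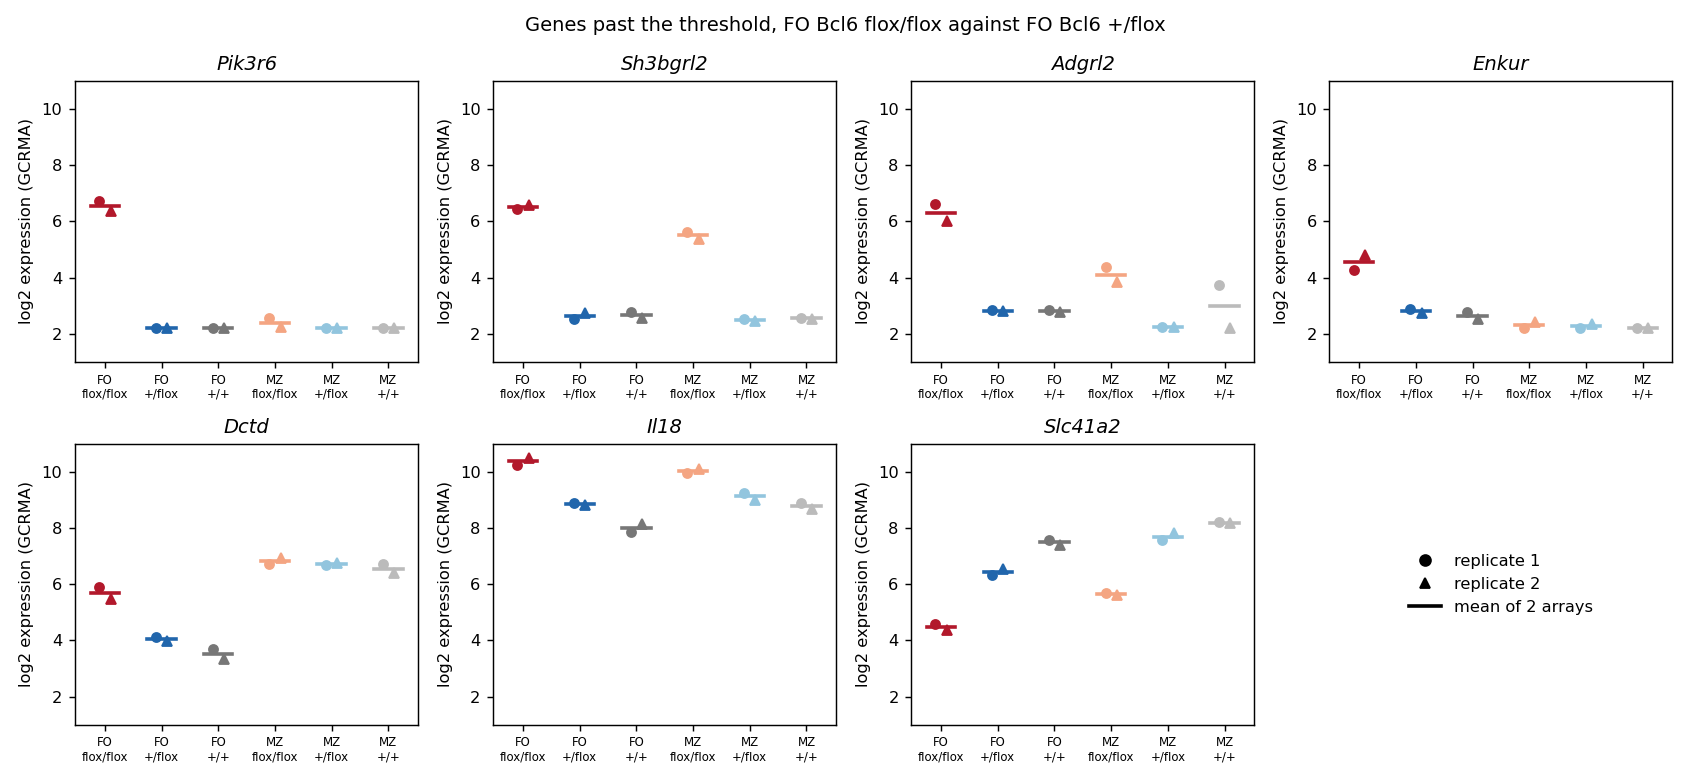
Log2 GCRMA expression of the 7 genes that passed, with 1 panel for each gene, 1 point for each array (circle replicate 1, triangle replicate 2) and a bar at the mean of 2 arrays, by cell type and genotype. Pik3r6, Sh3bgrl2, Adgrl2 and Enkur lie near the minimum on the +/flox and +/+ FO arrays, while Il18 and Slc41a2 form steps over the FO genotypes. FO and MZ arrays differ in their minimum and may have been normalized separately.

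Promoter windows are shown for the genes that passed in both cell types, Sh3bgrl2 and Slc41a2, and for the 3 named genes whose window holds a BCL6-like motif. Each window runs from 250 bases before to 50 after the transcription start, from RefSeq on GRCm38.p6, written 5′ to 3′ on the gene's strand, and 20 of 25 genes looked up had a window. Pik3r6 was among the genes without a window, so its promoter was not searched. The motif TTCCTNGAA was searched on both strands, and capitals mark a match. Every TTCCTAGAA is a TTCCTNGAA, and every TTCCTNGAA is a TTCNNNGAA. Among all 32851 windows, TTCCTNGAA occurred in 1.59%, TTCCTAGAA in 0.411% and TTCNNNGAA in 8.3%. Of the 28 windows of these genes, 3 held TTCCTNGAA, none TTCCTAGAA, and 5 TTCNNNGAA. The 3 were windows of Bcl6, Smyd2 and Mgst1, none of which passed in the main fit. No window of a gene that passed there held TTCCTNGAA.
Sh3bgrl2, chr9:83548088-83548387, plus strand: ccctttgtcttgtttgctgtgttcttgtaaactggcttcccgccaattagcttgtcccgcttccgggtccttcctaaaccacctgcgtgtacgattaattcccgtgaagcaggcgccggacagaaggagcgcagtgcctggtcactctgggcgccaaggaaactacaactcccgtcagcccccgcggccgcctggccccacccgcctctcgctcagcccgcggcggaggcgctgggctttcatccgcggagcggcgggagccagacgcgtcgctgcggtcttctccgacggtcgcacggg
Slc41a2, chr10:83337768-83338067, minus strand: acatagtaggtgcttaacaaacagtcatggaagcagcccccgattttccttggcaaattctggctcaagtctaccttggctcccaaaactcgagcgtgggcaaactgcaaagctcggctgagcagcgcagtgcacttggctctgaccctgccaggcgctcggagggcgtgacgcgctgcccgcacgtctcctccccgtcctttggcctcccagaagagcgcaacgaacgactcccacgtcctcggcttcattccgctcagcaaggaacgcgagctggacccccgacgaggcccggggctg
Smyd2, chr1:189922242-189922541, minus strand: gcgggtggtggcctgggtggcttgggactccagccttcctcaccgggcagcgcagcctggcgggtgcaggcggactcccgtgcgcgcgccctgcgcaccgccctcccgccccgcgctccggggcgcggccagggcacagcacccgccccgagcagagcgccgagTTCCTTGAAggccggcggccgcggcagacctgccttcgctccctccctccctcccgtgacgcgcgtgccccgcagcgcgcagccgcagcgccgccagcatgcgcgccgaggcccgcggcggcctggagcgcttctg
Mgst1, chr6:138141337-138141636, plus strand: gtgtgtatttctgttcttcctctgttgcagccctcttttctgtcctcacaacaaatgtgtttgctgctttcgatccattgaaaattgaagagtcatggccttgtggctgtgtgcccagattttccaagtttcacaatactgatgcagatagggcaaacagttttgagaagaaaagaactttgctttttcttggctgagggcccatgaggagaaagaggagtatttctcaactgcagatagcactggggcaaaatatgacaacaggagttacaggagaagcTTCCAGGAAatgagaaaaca
Bcl6, chr16:23981234-23981533, minus strand: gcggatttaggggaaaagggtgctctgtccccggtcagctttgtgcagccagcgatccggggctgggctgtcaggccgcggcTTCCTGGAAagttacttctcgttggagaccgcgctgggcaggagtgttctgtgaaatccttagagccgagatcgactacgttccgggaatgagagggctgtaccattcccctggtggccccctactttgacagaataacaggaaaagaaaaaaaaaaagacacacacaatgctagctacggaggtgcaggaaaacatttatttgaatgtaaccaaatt

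The match in the Smyd2 window begins at position -86 relative to the start. In the Mgst1 window, 1 of that gene's windows, it begins at position 30 after the start, on the opposite strand. In Bcl6 it begins at position -168 of the window whose start lies further downstream, and the other Bcl6 window holds no match. A match is a description of the letters only.

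Behind the genes that passed, the named rule took those with the smallest p that differed by at least 1 log2 unit without overlap, none of which passed. Smyd2, a lysine methyltransferase, read 6.56 and 6.74 in flox/flox cells, against 4.28 and 3.93 in +/flox cells and 3.93 and 2.88 in +/+ cells, a difference of 2.54 ± 0.34 (limma adjusted p = 0.0556). Atxn1, the corepressor-binding protein ataxin-1, read 9.05 and 8.79 in flox/flox cells, against 7.38 and 7.47 in +/flox cells and 6.76 and 6.36 in +/+ cells. Its difference was 1.50 ± 0.20 (limma adjusted p = 0.0532). Plxna1, a semaphorin receptor, read 4.62 and 5.06 in flox/flox cells, against 3.06 and 2.59 in +/flox cells, a difference of 2.01 ± 0.29. In all 3 the flox/flox arrays lay above both +/flox arrays, as the named rule required. Plxna1 reached the filter level of 4 only on flox/flox arrays, of FO and MZ cells, and entered the test through them. Upb1, the beta-ureidopropionase of pyrimidine breakdown, read 6.95 and 6.85 in flox/flox cells, against 4.67 and 4.03 in +/flox cells, a difference of 2.55 ± 0.37 (limma adjusted p = 0.0796).

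On the low side, Ltk, a receptor tyrosine kinase, read 4.07 and 4.30 in flox/flox cells, against 5.91 and 6.76 in +/flox cells, a difference of -2.15 ± 0.32 (limma adjusted p = 0.0796). Gsn, encoding the actin-severing protein gelsolin, read 9.68 and 9.58 in flox/flox cells, against 11.02 and 10.59 in +/flox cells and 11.33 and 11.78 in +/+ cells. Its 4 probe sets past the filter lay lower in flox/flox cells, and its difference was -1.17 ± 0.22 (limma adjusted p = 0.218). Chst11, a chondroitin 4-O-sulfotransferase, read 4.46 and 4.86 in flox/flox cells, against 5.80 and 5.95 in +/flox cells. Crisp3, a cysteine-rich secretory protein, read 6.94 and 6.74 in flox/flox cells, against 8.69 and 9.35 in +/flox cells and 10.45 and 10.26 in +/+ cells. Apoe, the apolipoprotein E gene, read 7.50 and 6.62 in flox/flox cells, against 9.21 and 10.20 in +/flox cells. Ddx25, Samsn1, St8sia6 and Pxdc1 had differences between -1.07 and -1.20. None passed, with limma adjusted p between 0.0796 and 0.751 for the 9 genes. With the replicate number as a block, Ltk passed (limma adjusted p = 0.00733, and 0.0345 with the block within cell type), and Upb1 passed in the first of these (limma adjusted p = 0.0235, and 0.0535 in the other).

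The step between +/flox and +/+ shares the +/flox arrays with the main comparison, so its values are only set beside it. For that step, Il18 differed by 0.85, Slc41a2 by -1.06 and Dctd by 0.53, and Pik3r6, Sh3bgrl2 and Adgrl2 by 0.00, -0.03 and 0.01. No gene passed (limma, 0% of 9306), and 184 had a p under 0.05 before adjustment, 1.98%.

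**Figure D2:**
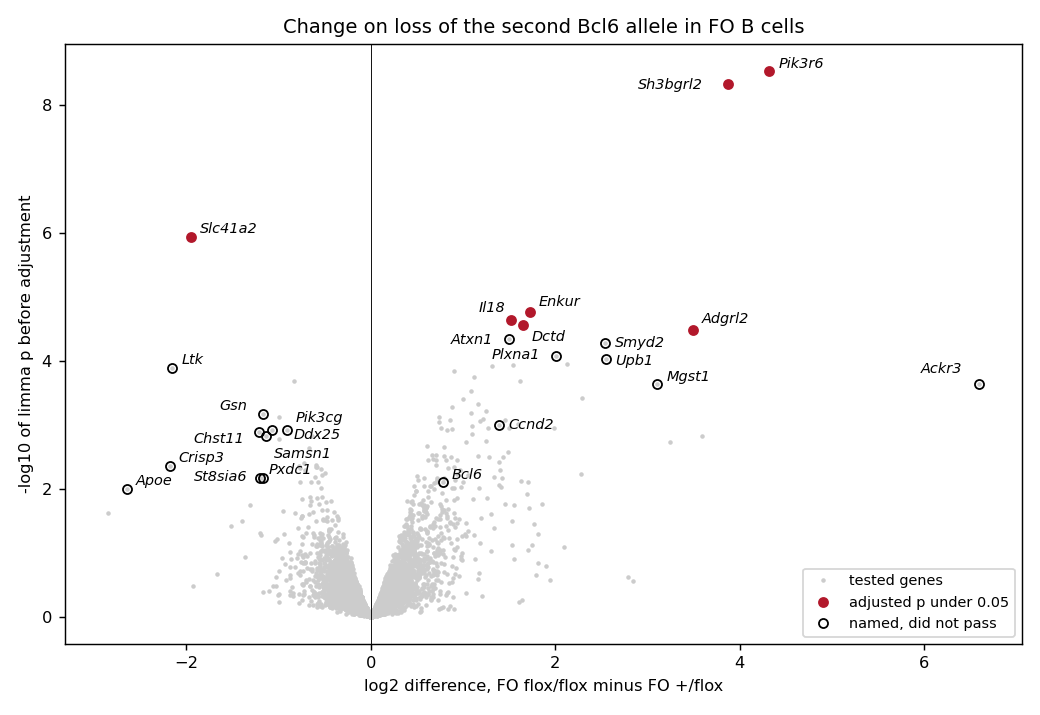
Each point is 1 of the 9306 tested genes, with the log2 difference of flox/flox minus +/flox FO cells on the horizontal axis and -log10 of the limma p before adjustment on the vertical axis. Red points passed an adjusted p of 0.05, and open circles mark some of the named genes that did not. Pik3r6 and Sh3bgrl2 lie apart at the upper right, and Slc41a2 at the upper left.

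Among the PI3K subunits and AKT pathway, 23 members were tested, of which 1, Pik3r6, passed. At p under 0.05 before adjustment, 2 were higher and 2 lower, against 2.22% and 0.806% of all tested genes, and the median difference was -0.05. Pik3cg, the catalytic p110 gamma subunit that binds p84, read 8.32 and 8.63 in flox/flox cells, against 9.30 and 9.47 in +/flox cells and 8.93 and 8.91 in +/+ cells, a difference of -0.91 ± 0.19 (limma adjusted p = 0.238). Pik3r5, the alternative p101 regulatory subunit, read 8.70 and 8.64 in flox/flox cells, against 7.62 and 7.75 in +/flox cells, a difference of 0.98 ± 0.29 (limma adjusted p = 0.738). Pik3ap1, the B cell adaptor BCAP, read 8.40 and 8.29 in flox/flox cells, against 9.04 and 8.93 in +/flox cells.

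Of 25 genes held to be BCL6 targets, none passed, and 2 had p under 0.05 and were higher, against 2.22% of all tested genes. Among them 9 differences were positive and 15 negative, against 49.6% positive among all tested genes, and the median was -0.03. Ccnd2, the G1 cyclin D2, read 11.38 and 11.18 in flox/flox cells, against 10.24 and 9.54 in +/flox cells and 9.57 and 9.18 in +/+ cells, a difference of 1.39 ± 0.28 (limma adjusted p = 0.238). Its 6 probe sets past the filter ranged from 1.27 to 1.55 higher. Socs2, a suppressor of cytokine signalling, read 6.96 and 5.99 in flox/flox cells, against 3.87 and 2.59 in +/flox cells, a difference of 3.24 ± 0.73 (limma adjusted p = 0.314). Of 10 corepressor genes, none had p under 0.05, and the median difference was 0.03. Bcor, the BCL6 corepressor, had a difference of -0.64 ± 0.40.

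Chemokine receptors held the largest difference of any named gene. Ackr3, the atypical receptor CXCR7 that scavenges CXCL12, read 12.15 and 11.14 in flox/flox cells, against 7.15 and 2.94 in +/flox cells and 2.35 and 2.35 in +/+ cells. The +/flox arrays lay far apart from each other, and the difference of 6.59 ± 1.08 did not pass (limma adjusted p = 0.105). Without the first +/flox FO array the difference was 8.70, and without the second 4.49. Those fits pass, but they leave 1 +/flox array and drop the wide spread of the pair, with the error taken from the other groups, so their p-values are not read here. Of 10 tested receptors, 1, Ackr3, had p under 0.05 and was higher, against 2.22% of all tested genes, and the median was 0.06.

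Among glutathione and redox enzymes none passed. Of 19 tested, 4 had p under 0.05 and were higher, against 2.22% of all tested genes. Of the 19 differences 14 were positive, against 49.6% of all tested genes, and the median was 0.13. Mgst1, a microsomal glutathione S-transferase, read 10.38 and 10.52 in flox/flox cells, against 7.61 and 7.09 in +/flox cells and 6.79 and 5.03 in +/+ cells, a difference of 3.11 ± 0.51 (limma adjusted p = 0.105). Gsto1, a glutathione transferase of the omega class, had a difference of 1.34 ± 0.37 (limma adjusted p = 0.64).

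The list of genes held to mark memory-type B cells has Ahnak, S100 and annexin genes, and others such as Vim, Cd80 and Ptpn22. Its median was the highest among the lists in the plot of list members, 0.42, against 0.00 for all genes. It had 15 tested members, 12 of them positive, against 49.6% of all tested genes. None passed, and 5 had p under 0.05, all higher, against 2.22% of all tested genes. S100a6, a calcium-binding protein, read 10.89 and 10.50 in flox/flox cells, against 9.16 and 8.80 in +/flox cells and 7.78 and 8.13 in +/+ cells. Ahnak, a giant scaffold protein, read 12.45 and 12.30 in flox/flox cells, against 10.80 and 10.84 in +/flox cells and 9.80 and 9.98 in +/+ cells. Ptpn22, a tyrosine phosphatase that dampens antigen receptor signals, read 10.70 and 10.63 in flox/flox cells, against 9.02 and 9.74 in +/flox cells. The other pair were Anxa1 and S100a10, with differences of 0.67 and 0.59. The 5 differences had limma adjusted p between 0.448 and 1. The list's median was 0.47 without replicates 1 and 0.37 without replicates 2 of both groups.

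The MHC class II, germinal centre and B cell receptor lists had more negative than positive differences, and no member passed. Of all tested genes, 49.6% had a positive difference. At p under 0.05 lay 2.22% of all tested genes on the higher and 0.806% on the lower side. MHC class II presentation had 15 negative differences of 17, a median of -0.13 and 2 with p under 0.05, both lower, H2-Eb2 and Cd83. H2-Eb2, a class II beta chain, read 9.19 and 9.50 in flox/flox cells, against 9.93 and 10.31 in +/flox cells and 10.55 and 10.53 in +/+ cells. The germinal centre list had 13 negative of 17, a median of -0.19, 1 higher and 3 lower at p under 0.05. The higher one was Bcl6 itself, read by its brighter probe set, while its dimmer probe set lay lower. Cd83, an activation marker of B cells, read 11.68 and 11.66 in flox/flox cells, against 12.22 and 12.56 in +/flox cells. The B cell receptor list had 4 of 30 with p under 0.05, all lower, Nfatc1, Cd72, Cr2 and Pik3ap1, and a median of -0.02. Nfatc1, a calcium-regulated transcription factor, read 11.12 and 11.17 in flox/flox cells, against 11.75 and 11.81 in +/flox cells. Cd72, an inhibitory coreceptor, read 11.96 and 12.06 in flox/flox cells, against 12.61 and 12.59 in +/flox cells. None of these members passed (limma adjusted p between 0.269 and 1).

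Actin cytoskeleton genes had a median of -0.02, with 3 higher and 1 lower of 25 at p under 0.05, against 2.22% and 0.806% of all tested genes. The lower one was Gsn. Vcl, vinculin, read 9.72 and 9.43 in flox/flox cells, against 8.68 and 8.39 in +/flox cells (limma adjusted p = 0.314). Of 16 Notch and Id/E protein genes, 1 had p under 0.05, Notch1, at 9.38 and 9.31 in flox/flox cells, against 8.66 and 8.61 in +/flox cells. Of 34 type I interferon genes, 2 had p under 0.05, Oas2 and Gbp7, with differences of 1.26 and 1.31. No gene of replication and mitosis had p under 0.05 among 34. Of these, 26 were positive, against 49.6% of all tested genes, with a median of 0.14. Some lists had 1 member with p under 0.05 that another list already held: Ccnd2 of 16 G1 cyclins and inhibitors, Socs2 of 22 STAT and SOCS genes, and Cd83 of 25 immediate early genes. In others it was Itgb1 of 19 homing genes (0.42), Bmf of 9 Bcl2 family genes (-0.74) and Pfkm of 18 glycolysis genes (0.81). P was under 0.05 for none of 25 plasma cell, 19 NF-kB, 22 DNA damage and 14 toll-like receptor genes. Immediate early genes, which react to handling of cells, had list means of 11.46 and 10.43 in flox/flox cells, against 11.33 and 10.24 in +/flox cells and 9.31 and 11.19 in +/+ cells.

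**Figure D3:**
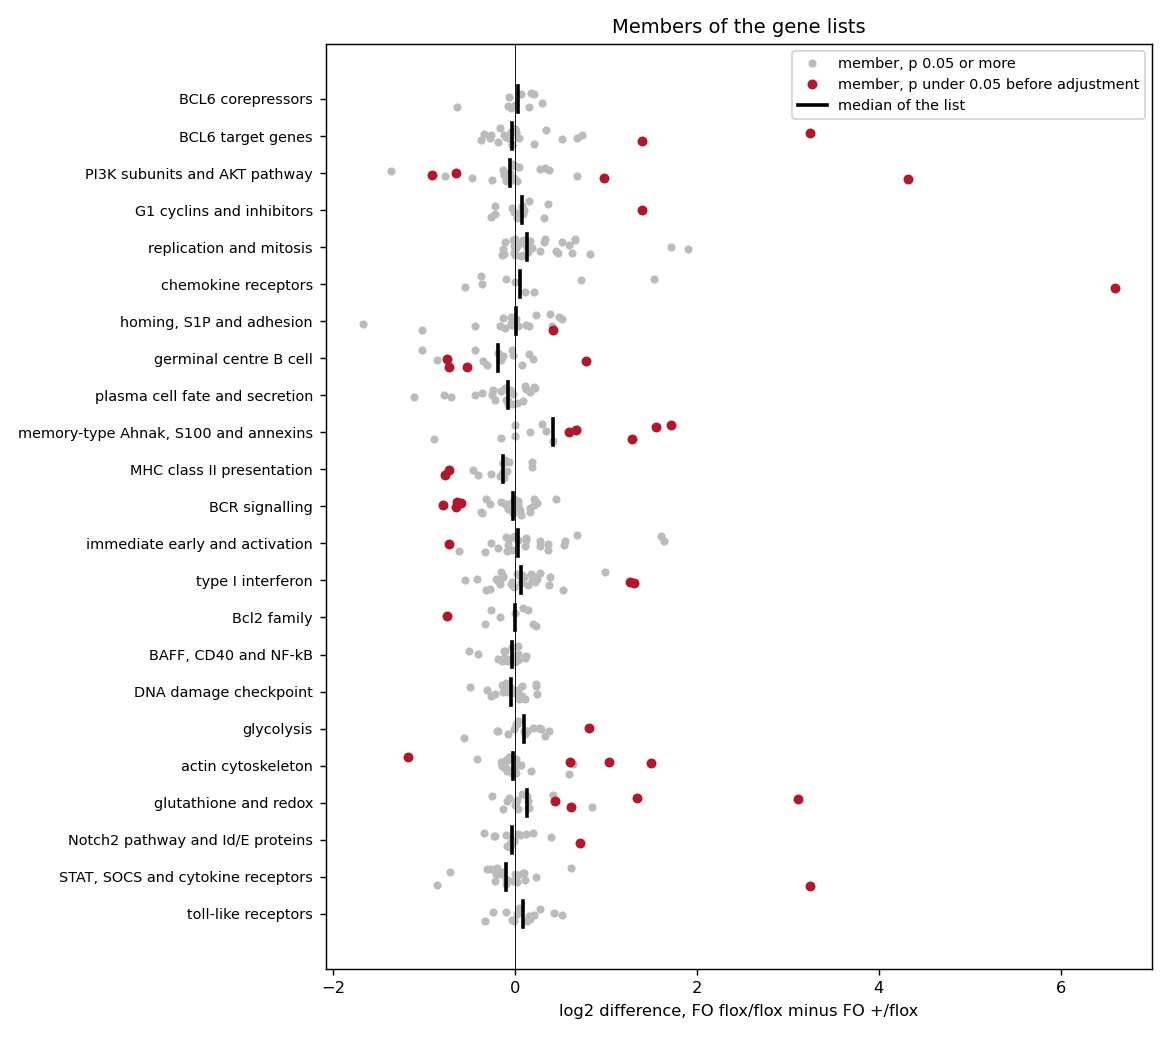
Each point is a tested member of a gene list, with its log2 difference of flox/flox minus +/flox FO cells. Red points have a limma p under 0.05 before adjustment, and the black bar is the median of the list. Medians run from -0.19 for the germinal centre list to 0.42 for the memory-type list of Ahnak, S100, annexin and other genes.

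Markers of FO B cells and of other cell types were set against the same difference, which was positive for 49.6% of all tested genes. Of 7 tested MZ B cell markers, 5 differences were positive and 2 negative, and 2 had p under 0.05, Cd1d1 at 0.69 and Plac8 at 0.45, against 2.22% of all tested genes higher. The list's median was 0.24, 0.07 without replicates 1 and 0.44 without replicates 2 of both groups. Of 9 tested FO B cell markers, 2 differences were positive and 7 negative. Among them 1, Cr2, had p under 0.05 and was lower, against 0.806% of all tested genes lower. The FO list's median was -0.27, -0.21 without replicates 1 and -0.02 without replicates 2 of both groups. Of the erythroid list, Car2, carbonic anhydrase 2, read 4.43 and 4.56 in flox/flox cells, against 7.23 and 7.44 in +/flox cells and 8.15 and 8.49 in +/+ cells. Its difference of -2.84 ± 1.03 did not pass over all 12 arrays (limma adjusted p = 1). Leaving out either +/+ MZ array gives the same fit, with the same difference. The wide spread of that MZ pair then no longer adds to the error, so the p-value of that fit is not read here. In a fit to the 6 FO arrays with the filter applied within them, Car2 passed (limma adjusted p = 0.0435). On the +/+ MZ arrays it read 6.68 and 2.49. The first of these arrays stood apart in RNA quality. Its 3' minus 5' log2 signal was 2.19 for beta-actin, against 0.64 to 1.07 on the other 11. For Gapdh it was 6.90, against -0.20 to 0.63 on the other 11. This array correlated with its replicate at 0.944. The part of that array in the results was not tested beyond leaving it out. The erythroid markers Hba-a1, Alas2 and Klf1 were at the minimum on all FO arrays.

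The same step in MZ cells used no array of the FO comparison, though the labels do not say whether the mice were shared. There 3 of 9306 genes passed, 0.0322%, and 506 had p under 0.05, 5.44%. Sh3bgrl2 rose in MZ as well, at 5.64 and 5.37 in flox/flox cells, against 2.52 and 2.46 in +/flox cells. Its difference was 3.02 ± 0.16 (limma adjusted p = 0.000354), and it reached the filter level of 4 only on flox/flox arrays. Slc41a2 fell in MZ as well, at 5.68 and 5.63 in flox/flox cells, against 7.56 and 7.81 in +/flox cells, a difference of -2.03 ± 0.16 (limma adjusted p = 0.00391). The third, Tspan15, a tetraspanin named after its values were seen, had a difference of -1.98 in MZ cells, while on the FO arrays it lay at 2.21 and 2.21 in flox/flox cells, against 2.37 and 2.21 in +/flox cells.

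For the other genes that passed in FO cells, the MZ difference did not pass. It was 1.87 for Adgrl2, 0.92 for Il18, 0.17 for Pik3r6, 0.09 for Dctd and 0.04 for Enkur (limma adjusted p between 0.457 and 0.996). Pik3r6 read 2.56 and 2.23 in flox/flox MZ cells, against 2.22 and 2.22 in +/flox MZ cells, so that it stayed near the minimum. Dctd read 6.71 and 6.92 in flox/flox MZ cells, against 6.70 and 6.74 in +/flox MZ cells, and lay above all the FO levels, although the minimum of the arrays differs between the cell types, which may have been normalized separately.

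The difference between the 2 steps was tested directly. It passed for Pik3r6 alone, 0.0107% of tested genes, at -4.15 ± 0.24 for MZ minus FO (limma adjusted p = 0.000692). Pik3r6 reached the filter level of 4 only on the flox/flox FO arrays, and its SD of 0 in several groups lowers the SE. For Enkur the MZ minus FO difference was -1.69 ± 0.28 (limma adjusted p = 0.533). For Dctd it was -1.56 ± 0.29 (limma adjusted p = 0.791), so neither was shown to differ between cell types. For Slc41a2 it was -0.08 ± 0.22, and for Sh3bgrl2 -0.86 ± 0.23 (limma adjusted p = 1 for both). All 10 higher and all 10 lower named genes had the same sign in MZ as in FO, against 57.7% of all genes. Pik3r6 and Enkur, 2 of the higher ones, lay within 0.5 of the minimum on all MZ arrays, so their sign there carries little. With the same sign and p under 0.05 in MZ were 5 and 4, against 3.8% of all genes. The named genes were picked by an FO p whose error is shared with the MZ arrays. A small MZ p was thus favoured in advance, and no conclusion is drawn from these counts. Of the higher ones, 4 lay at least 1 log2 unit higher in +/+ MZ than in +/+ FO cells, against 10.4% of all genes, in levels that carry the same doubt. Ackr3, outside those 20, lay at 12.76 and 12.01 in +/+ MZ cells, against 2.35 and 2.35 in +/+ FO cells, and Mgst1 read 9.56 and 9.22 in +/+ MZ cells, against 6.79 and 5.03 in +/+ FO cells.

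**Figure D4:**
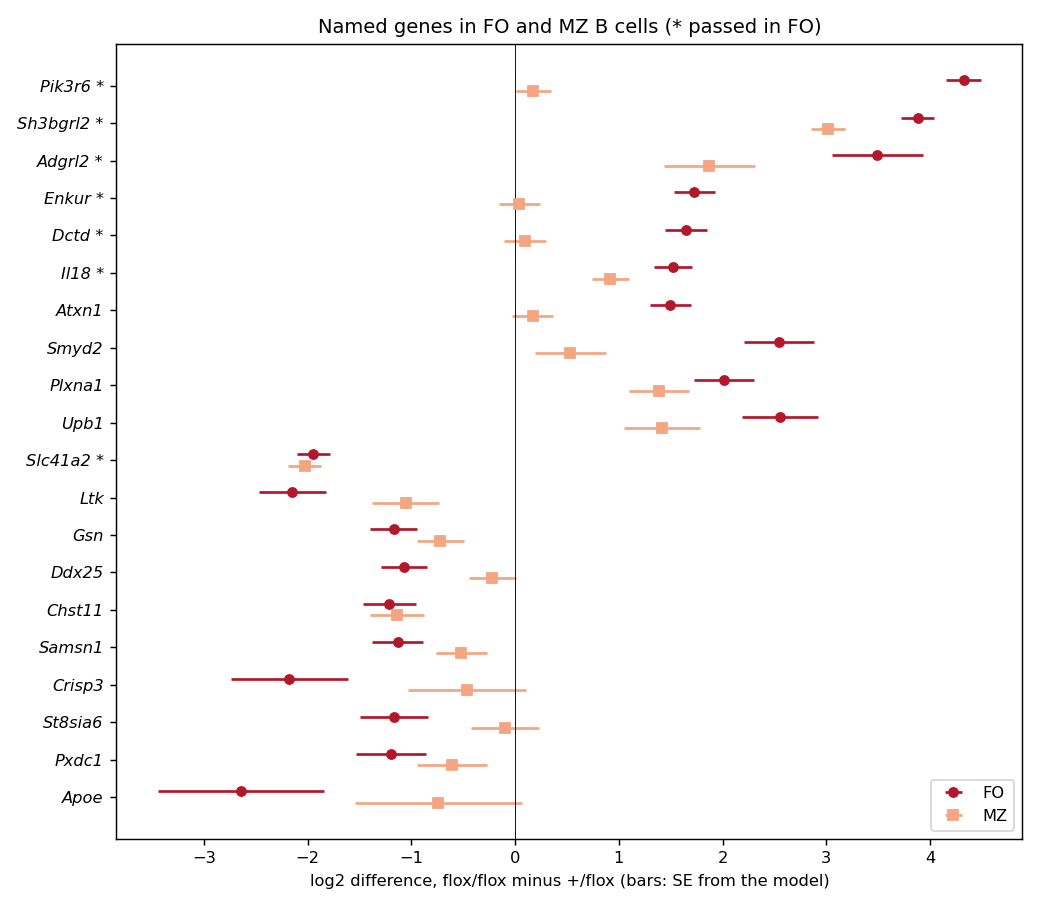
Log2 difference of flox/flox minus +/flox in FO cells (red circles) and in MZ cells (orange squares) for the 20 named genes, with bars showing the SE of the model and a star for a gene that passed in FO. Sh3bgrl2 and Slc41a2 passed in both, and Pik3r6 lies at 4.32 in FO and 0.17 in MZ.

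Without the replicate 1 arrays of both FO groups, 3 genes passed: Ackr3, Pik3r6 and Sh3bgrl2. Without the replicate 2 arrays, the same 3 passed. These fits set 1 array against 1, with the error taken from the other groups alone, so Ackr3 passes without its wide +/flox pair adding to the error. Slc41a2 then had differences of -2.14 (adjusted p = 0.163) and -1.75 (adjusted p = 0.349). Fitted to the 6 FO arrays with the same 9306 genes, the model called Pik3r6 and Sh3bgrl2 (limma adjusted p = 0.0196 for both) and no other gene. With the filter applied within those arrays it also called Adgrl2 and Car2.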

How the data were processed

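Total RNA of sorted splenic B cells was hybridised to 12 Affymetrix arrays, per the labels. The deposited log2 values were made by the authors with GCRMA, per the submitters' processing notes, with a version not given in the sources used here. The minimum differed between FO and MZ arrays (2.21262 and 2.21924), so levels set across cell types may carry separate normalization, which no source states.

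Of 45101 probe sets, 34958 had 1 gene symbol in the platform annotation, 932 several and 9211 none listed, and 64 were controls. For each of 18193 genes, the probe set of highest mean over the arrays was used. The 9306 genes at 4 or more on at least 2 arrays were fitted with limma 3.58.1 in R 4.3.3 as 6 group means, with 6 residual degrees of freedom. Two-sided p-values were adjusted by Benjamini-Hochberg over all tested genes, with a threshold of 0.05. The fit was tested on simulated data. Arrays at the minimum have an SD near 0, which lowers the SE.

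Named were Bcl6, up to 15 genes a direction past the threshold without overlap, filled to 10 with the smallest p at 1 log2 unit or more, and up to 4 list members by p. Of 33 lists, some are given by counts alone, a choice made after some members were seen to turn sign under an alternative. The genes S100a10, S100a8, S100a9, Car2, Cd1d1, Plac8, Fcer2a, Itgb1, Bmf, Pfkm and Tspan15 were named after their values were seen. The comparison and lists were chosen with earlier results of these data known. Replicate numbers are shared between groups, with no stated pairing. Alternatives covered the filter, probe set rule, moderation, weights, centring, arrays in the model, a replicate block, and arrays left out.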

Additional observations from a re-analysis of the deposited data

Results flagged for a closer look

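The difference between flox/flox and +/flox cells was tested against itself in the other cell type. For Pik3r6 it was lower in MZ than in FO cells by -4.15 (MZ minus FO, limma adjusted p = 0.000692). The gene reached the filter level of 4 only on the flox/flox FO arrays, and an SD of 0 in several groups lowers the SE. Pik3r6 read 6.71 and 6.36 in flox/flox FO cells, against 2.21 and 2.21 in +/flox FO cells, and 2.56 and 2.23 in flox/flox MZ cells, against 2.22 and 2.22 in +/flox MZ cells.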

How the results depend on the processing

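Between flox/flox and +/flox FO cells 7 genes passed. The count was 2 with the arrays of 1 cell type only, 0 with the 4 arrays of the comparison (408 at limma p under 0.05 before adjustment), 4 with trend and robust moderation and, chosen after seeing the data, 4 with the 6 FO arrays and a filter within them, 3 without replicates 1 and 3 without replicates 2 of both groups. It was 8 with a replicate block, of which 6 shared with the main call, and 4 with a replicate block within cell type, of which 3 shared. With no filter on low values it was 7, and over all probe sets 5. In each of these, 3 were shared with the main call: Pik3r6, Sh3bgrl2 and Slc41a2. Adgrl2, Enkur, Dctd and Il18 passed in neither. The replicate deviations of FO flox/flox and FO +/flox correlated at 0.768, but the labels state no pairing. Leaving out 1 array at a time gave 2 to 5. In MZ cells 3 genes passed, with 0 for 1 cell type only, 0 for 4 arrays, 9 with no filter, 5 with array weights, 7 with a replicate block within cell type and 1 to 4 with 1 array left out. The MZ minus FO difference gave 1, with 5 without a filter and 1 to 2 with 1 array left out. The +/flox minus +/+ step gave 0, with 1 without a filter and 0 to 1 with 1 array left out. Bcl6 reversed to -2.47 (adjusted p = 0.0111) over all probe sets and to -0.85 (adjusted p = 0.182) for the mean of probe sets, since its probe sets differ in sign. With 1 array left out S100a8, at 0.84, ranged from -2.42 to 4.10 and S100a9, at 0.90, from -2.88 to 4.68. Without replicates 1 S100a9 was at -0.066.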
